A study of Mus musculus with 72 samples.

Results

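The 10 genes described here make, or direct the making of, fatty acids in liver, a process called de novo lipogenesis. They are Srebf1, Mlxipl, Acly, Acaca, Acacb, Fasn, Me1, Elovl6, Scd1 and Thrsp, taken by their Ensembl identifiers from the 55573 genes of a count table. All 10 were found, and all 10 passed the filter on low counts in every comparison. Livers of male C57BL/6 mice (C57BL/6J by the study's methods) were sampled at ZT2, ZT6, ZT10, ZT14, ZT18 and ZT22 (zeitgeber time, hours from lights on). Every mouse carried Bmal1 fl/fl, floxed alleles of the gene for BMAL1, which switches on clock-driven transcription, and mice with these alleles alone are called WT. Bmal1 fl/fl Albumin-Cre mice (LKO) also express Cre from the albumin promoter, which is active in hepatocytes. Whether other liver cells kept the gene was not tested here. Mice of each genotype lived with microbes under specific pathogen-free conditions (SPF) or without them, germ free (GF), in flexible film isolators after rederivation. The labels give no treatment beyond genotype and microbial status and no age, for which the study's methods give a range, and by those methods food was always available. There were 3 libraries per group and time, 18 per group and 72 in all.

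In de novo lipogenesis, carbon from sugar is stored as fat. ATP citrate lyase (Acly) makes acetyl-CoA, the carboxylases (Acaca, Acacb) turn it into malonyl-CoA, and fatty acid synthase (Fasn) builds palmitate with NADPH, some of which malic enzyme (Me1) supplies. An elongase (Elovl6) and a desaturase (Scd1) then modify the product, and the transcription factors SREBP-1 (Srebf1) and ChREBP (Mlxipl), which respond to insulin and to sugar, drive most of these genes after feeding.

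Promoter sequence is shown for 3 members on which the results turn, namely Fasn, the synthase, Thrsp, which had the largest rhythm and the largest changes at single times, and Mlxipl, which was lower in GF mice of both genotypes. RefSeq promoters (GRCm38.p6) were matched for 9 of the 10 members, with 13 start sites, and the entry for Scd1 was missing. The 250 bases before each start were searched on both strands for 5 motifs. CACGTG is the E-box, a site type bound by clock activators and, in pairs, by ChREBP. TCACNCCAC is a sterol element and CCAAT the box of that name, while the GC box reads GGGCGG and the D-box TTATGNAA. The 120 bases before the start are printed 5′ to 3′ along the gene, with matches in capitals. A match on the other strand shows as its reverse complement, so CCAAT can read ATTGG, and the Fasn run of 8 capitals holds 2 CCAAT matches that overlap, 1 on each strand. The windows are chr11:120824548-120824667 (Fasn, minus strand), chr7:97417551-97417670 (Thrsp, minus strand) and chr5:135089770-135089889 (Mlxipl start 2, plus strand).
Fasn: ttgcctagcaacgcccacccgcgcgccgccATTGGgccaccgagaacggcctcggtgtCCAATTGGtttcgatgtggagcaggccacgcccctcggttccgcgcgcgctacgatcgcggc
Thrsp: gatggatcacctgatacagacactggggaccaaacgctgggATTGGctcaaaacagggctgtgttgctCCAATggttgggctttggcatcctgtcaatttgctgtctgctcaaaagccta
Mlxipl start 2: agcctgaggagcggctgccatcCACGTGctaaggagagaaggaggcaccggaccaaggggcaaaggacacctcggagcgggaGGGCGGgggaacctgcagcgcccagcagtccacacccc
A CCAAT box was found at 7 of the 13 starts, of 6 members, and 33.8% of the 32851 starts of all genes held it. A GC box was found at 5 of the 13 starts, of 4 members, and 32.7% of all starts held it. The E-box was found at 1 start, that of Mlxipl printed above, 98 bases before it, and 6.02% of all starts held it. The sterol element was found before the other Mlxipl start and in 1.05% of all starts. Counts per gene do not show which of the Mlxipl starts the measured RNA came from. The D-box, held by 3.07% of all starts, was found at none of the 13. These matches are letters in a window and were not tested for binding.

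Libraries held 17369927 to 22076113 counts. The clock gene Npas2 was higher in LKO livers, by 3.25 ± 0.52 on the log2 scale (SE; edgeR adjusted p = 1.09e-05) in SPF and by 2.83 ± 0.47 (adjusted p = 7.99e-06) in GF mice. Bmal1 is listed as Arntl, and counts per gene do not separate its deleted part, so its level (LKO against WT -0.33 ± 0.37 in SPF and -0.84 ± 0.37 in GF mice, neither past the threshold) does not check the genotype. By these genes 4 libraries were taken to stand apart from the others of their label, a choice made without a stated cut-off. The library labelled SPF LKO ZT14 replicate 2 had 0.219 CPM (counts scaled to library size) of Npas2 beside 25.02 and 24.01 in the other two, and that labelled SPF LKO ZT18 replicate 1 had 1.82 beside 36.7 and 27.5. In that labelled SPF WT ZT14 replicate 3 Arntl was at 2.12 CPM beside 15.8 and 19.5, and in that labelled GF WT ZT6 replicate 3 at 8.21 beside 1.62 and 2.43. Npas2 in SPF WT livers was 0.0532 to 0.207 CPM at ZT14 and 0.107 to 2.75 at ZT18. By Npas2 both SPF LKO libraries were thus nearer to WT livers of their time than to the other LKO livers. Arntl in the ZT18 library was 29.2 CPM, beside 19.7 to 30.1 in SPF WT and 11.45 and 11.89 in the other SPF LKO livers. In the ZT14 library it was 12.98 CPM, beside 12.35 and 10.39 in the other SPF LKO livers. Whether these labels are right was not tested. Other libraries also differed from those of the same label. SPF WT ZT18 replicate 3 had 0.107 CPM of Npas2 beside 2.28 and 2.75, and SPF WT ZT2 replicate 2 had 6.93 beside 1.06 and 1.58. The 4 libraries stayed in the groups that their labels give, and for some results values without them are given below. Hepatocyte markers were high in every library, with a summed level of 81678 to 130833 CPM in SPF WT, 42372 to 125963 in SPF LKO, 112327 to 167730 in GF WT and 50885 to 74848 in GF LKO livers, so this sum moved with genotype. Alb, whose promoter drives Cre, was the most abundant of these 5 markers, and the part of this shift in the results below was not tested. The summed level of 4 bile duct cell markers (Krt19, Krt7, Epcam, Sox9) also moved with genotype, with medians of 8.02 CPM in SPF WT (3.15 to 12.4), 13.5 in SPF LKO (4.55 to 19.3), 6.56 in GF WT (3.86 to 14.4) and 9.67 in GF LKO livers (7.18 to 18.4), and its part was not tested. Of 5 markers of fat cells, which also make fatty acids, Lep was at 0 in all 72 libraries, Plin1 and Retn in 64 and Adipoq in 49, and their sum was at most 5.98, 1.21, 9.24 and 0.259 CPM in the same 4 groups, with the 9.24 all Cfd. In bulk tissue fewer cells of a type and less RNA per cell cannot be told apart.

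Per length, the members' levels spanned a wide range. Scd1 had the highest median in SPF WT livers, 3341 TPM (counts scaled by exon length, then by library), followed by Thrsp at 699, and Acaca had the lowest, 4.50. The other 7 lay between 12.2 TPM (Acacb) and 102 TPM (Acly), with ranges over libraries that overlapped those of their neighbours. Scd1 also took most of the members' counts, with medians of 78.3% in SPF WT, 79.4% in SPF LKO, 73.8% in GF WT and 75.4% in GF LKO livers. The other 9 members together had medians of 2001, 1230, 2271 and 1127 CPM in the same order.

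Livers of the same group and time varied more in these genes than in most. The within-group SD ran from 0.29 (Acaca) to 0.61 (Fasn) on the log2 scale, beside a median of 0.23 over all genes kept, and 98.4% of genes had a smaller SD than Fasn. Over the 24 means of group and time, the 45 pairs of members had a median Pearson r of 0.55 (-0.05 to 0.89). Deviations of the 72 libraries from those means had a median r of 0.45 (-0.05 to 0.81), so livers high in 1 member for their group tended to be high in others. The points share libraries and scaling factors.

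**Figure D1:**
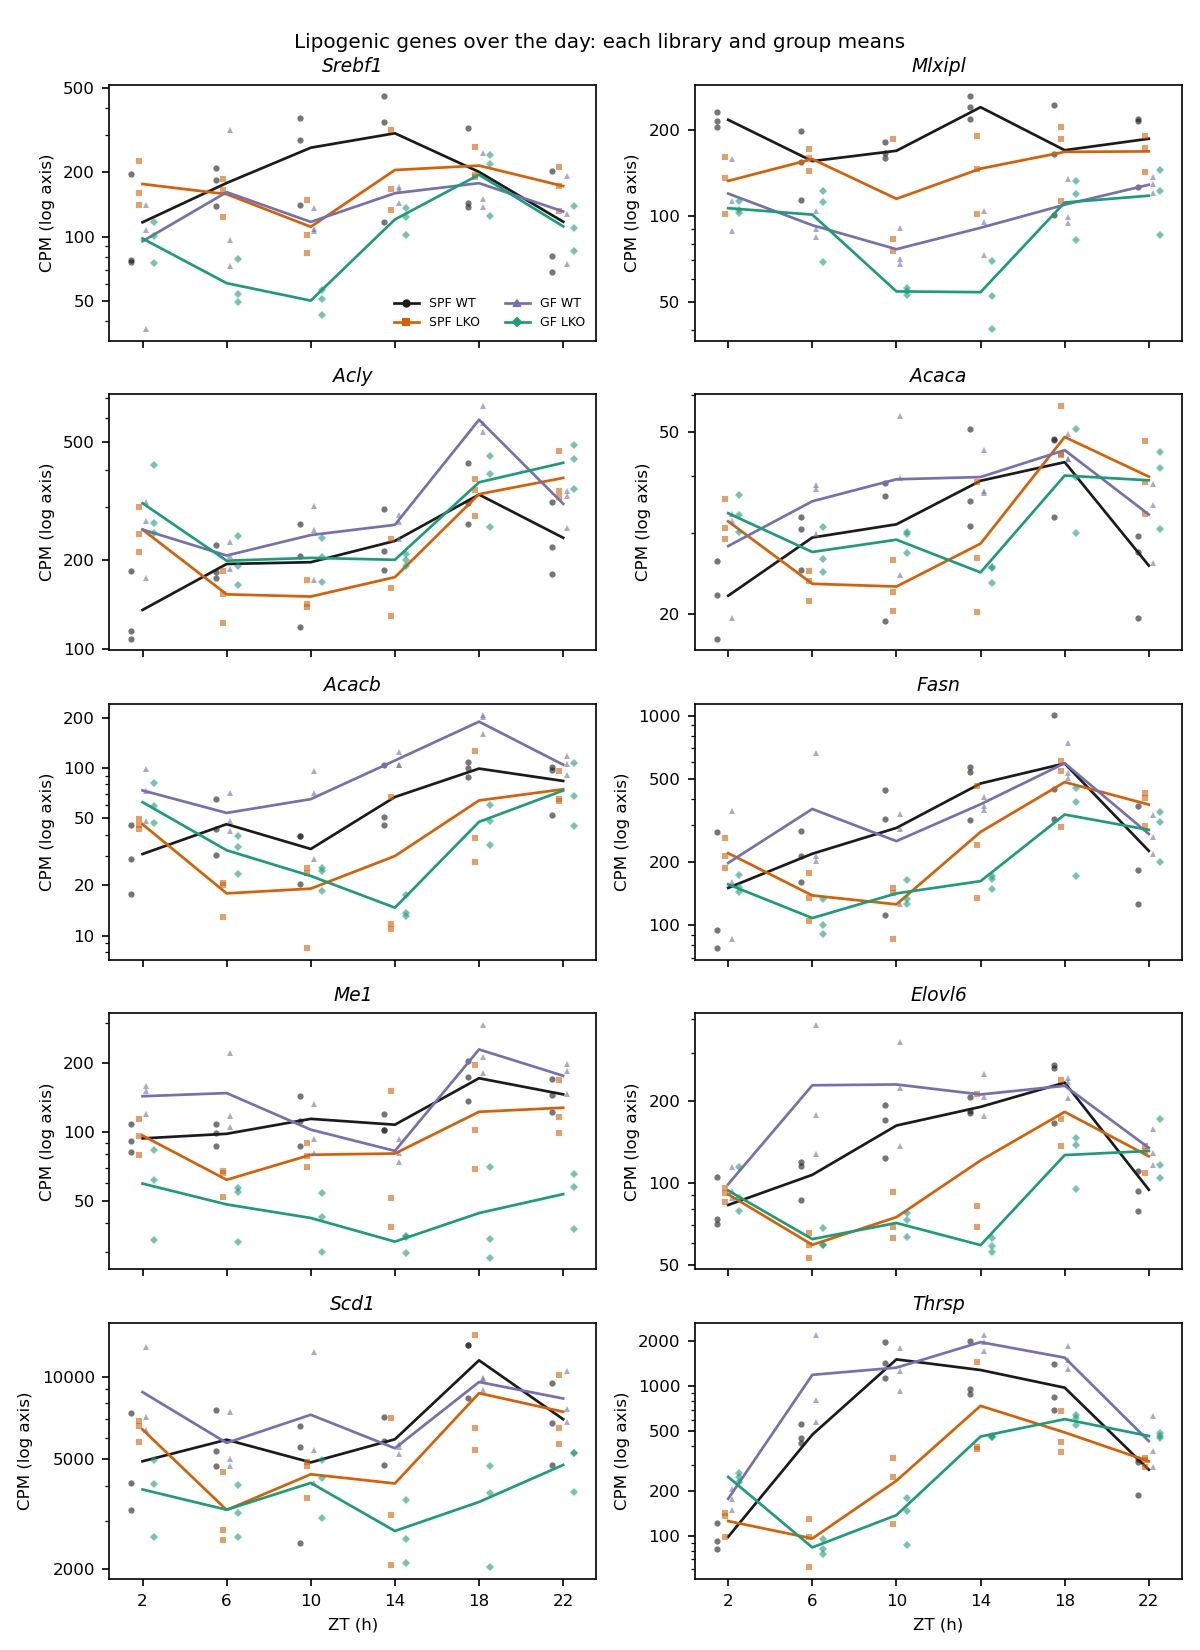
Level of each member (CPM, log axis) against ZT (h). Points are the 3 libraries per group and time and lines join group means; SPF WT is black with circles, SPF LKO orange with squares, GF WT violet with triangles and GF LKO green with diamonds. At ZT10 Thrsp in SPF WT livers sits between 1132 and 1991 CPM and in SPF LKO livers between 121 and 335.

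The first comparison asked how loss of the liver clock changed the lipogenic genes in SPF mice, over all times. Thrsp and Mlxipl were lower in LKO livers and the other 8 members did not pass the test. Called lower were 2 of 10 members, beside 11.5% of the 13159 genes tested, and 0 were called higher (0 also at an unadjusted p under 0.05 and 0 by DESeq2), beside 11.6%. The members' median log2 change was -0.31, that of all genes tested -0.01.

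Thrsp encodes Spot 14, a small protein that promotes fatty acid synthesis (ENSMUSG00000035686, GRCm38 chr7:97412938-97417730). Its lowest, median and highest levels were 82.4, 626 and 1998 CPM in SPF WT and 61.8, 307 and 1448 in SPF LKO livers. The groups overlapped over the pooled day, and the change was -1.20 ± 0.39 (adjusted p = 0.0235), or 0.434 of the WT level. The 1448 belonged to the SPF LKO ZT14 library with little Npas2, and without the libraries that stood apart the change was -1.65 ± 0.38 (adjusted p = 0.00102).

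Mlxipl (ENSMUSG00000005373, chr5:135089890-135138382) had 101, 202 and 263 CPM as lowest, median and highest values in SPF WT and 75.3, 153 and 205 in SPF LKO livers. The groups overlapped widely, the change was -0.35 ± 0.13 (adjusted p = 0.0386), and the call was lost when any of 15 of the 36 libraries was left out, with adjusted p from 0.0161 to 0.0642 over all 36. The 15 comprised 9 SPF WT and 6 SPF LKO libraries. A gene on the other strand shares 4.24% of its exon bases, where reads of either were not counted.

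The other regulator, Srebf1 (ENSMUSG00000020538, chr11:60199089-60222581), had medians of 165 CPM in SPF WT and 166 in SPF LKO livers and a change of -0.18 ± 0.21 (adjusted p = 0.588). Among the enzymes, Acacb had a change of -0.51 ± 0.30 (adjusted p = 0.227), Elovl6 of -0.41 ± 0.20 (adjusted p = 0.138) and Me1 of -0.36 ± 0.16 (adjusted p = 0.108). Without the libraries that stood apart 4 members were called, since Elovl6 (-0.59 ± 0.19, adjusted p = 0.0157) and Me1 (-0.52 ± 0.15, adjusted p = 0.00949) then passed as well. Leaving out SPF LKO ZT18 replicate 1 alone was enough for both (adjusted p = 0.0469 and 0.0276), as was SPF LKO ZT22 replicate 2 for Me1 (0.0492). With ZT added to the fit as a factor both passed too (Elovl6 -0.40 ± 0.14, adjusted p = 0.0307, and Me1 -0.37 ± 0.13, adjusted p = 0.0359).

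In GF mice the same comparison called most of the enzymes. Me1, Acacb, Elovl6, Scd1, Fasn and Thrsp were lower in LKO livers, while Acly, Acaca and both regulators did not pass. Called lower were 6 of 10 members, beside 15.2% of the 12662 genes tested, and 0 were called higher (0 at an unadjusted p under 0.05 and 0 by DESeq2), beside 15.6%. The members' median change was -0.90, that of all genes 0.01, and all 10 estimates were negative.

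Me1 is the cytosolic malic enzyme (ENSMUSG00000032418, chr9:86581371-86695953). It had 73.9, 140 and 294 CPM as lowest, median and highest values in GF WT and 28.2, 40.1 and 83.4 in GF LKO livers. The highest GF LKO value lay above only the 3 lowest of GF WT, and the change was -1.65 ± 0.17 (adjusted p = 6.35e-10), or 0.318 of the WT level, with the smallest p of the members.

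Scd1, which makes oleate (ENSMUSG00000037071, chr19:44394455-44407879), had 4105, 6980 and 12833 CPM in GF WT and 2027, 3785 and 5261 in GF LKO livers, a change of -1.02 ± 0.15 (adjusted p = 8.49e-07). Elovl6, which lengthens palmitate (ENSMUSG00000041220, chr3:129532355-129638495), had 87.9, 176 and 379 CPM in GF WT and 55.8, 78.3 and 171 in GF LKO livers, a change of -1.05 ± 0.18 (adjusted p = 1.12e-05). For both genes the median GF LKO liver lay below every GF WT liver.

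The carboxylases parted. Acacb, the form at mitochondria whose product restrains fatty acid oxidation (ENSMUSG00000042010, chr5:114146535-114250761), had 28.5, 97.7 and 206 CPM in GF WT and 13.1, 37.1 and 107 in GF LKO livers, a change of -1.24 ± 0.26 (adjusted p = 0.000217). Acaca, the cytosolic form that feeds synthesis (ENSMUSG00000020532, chr11:84129672-84401651), had medians of 37.2 and 30.2 CPM and a change of -0.19 ± 0.11 (adjusted p = 0.195).

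Fasn (ENSMUSG00000025153, chr11:120805846-120824547) had medians of 338 and 165 CPM in GF WT and GF LKO livers and a change of -0.78 ± 0.23 (adjusted p = 0.00812). Thrsp had medians of 1101 and 358 CPM and a change of -1.73 ± 0.35 (adjusted p = 0.000173). Acly (ENSMUSG00000020917, chr11:100476353-100528000) had medians of 270 and 243 CPM and a change of -0.13 ± 0.18 (adjusted p = 0.622). The regulators had changes of -0.40 ± 0.22 (Srebf1, adjusted p = 0.168) and -0.18 ± 0.14 (Mlxipl, adjusted p = 0.383). All 6 calls held without the library that stood apart and with any 1 library left out. With ZT added to the fit as a factor Srebf1 passed as well (-0.51 ± 0.19, adjusted p = 0.0327).

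**Figure D2:**
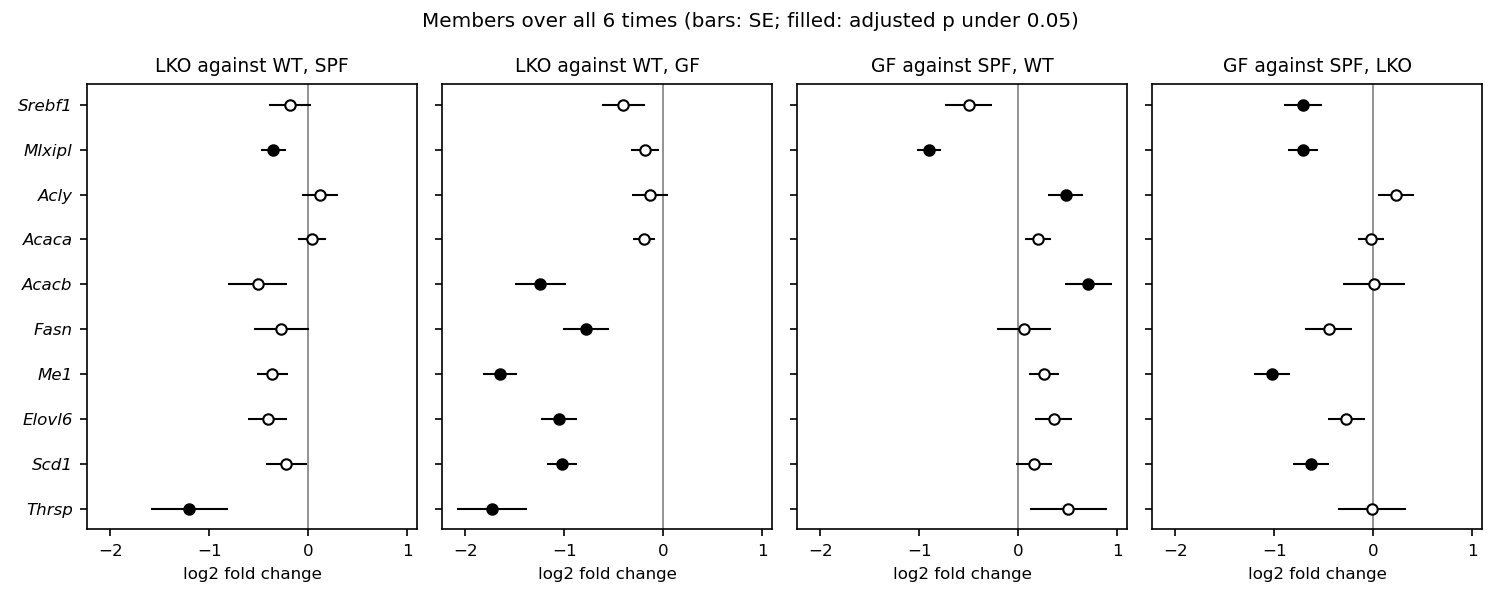
log2 fold change of each member over all 6 times in the 4 comparisons of 18 against 18 libraries; bars are SE and filled points had an adjusted p under 0.05. The panel for LKO against WT in GF mice has 6 filled points, all below 0, and that for SPF mice has 2.

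Whether the genotype effect differed between GF and SPF mice was tested on all 72 libraries. Me1 passed, 1 of 10 members beside 0.438% of the 13484 genes tested. Its genotype effect was -0.36 in SPF and -1.65 in GF mice, a difference of -1.30 ± 0.24 (adjusted p = 0.00103). Without the 4 libraries that stood apart the difference was -1.09 ± 0.24 (adjusted p = 0.0085), and the call was lost with all libraries numbered 1, or all numbered 2, left out (adjusted p from 0.00944 to 0.164 over the 3 numbers). For Scd1 the difference was -0.80 ± 0.26 (adjusted p = 0.244) and for Elovl6 -0.65 ± 0.27 (adjusted p = 0.567), so apart from Me1 a difference between SPF and GF mice was not shown for the enzymes called in GF mice. The estimate was negative for 9 of 10 members, with a median of -0.53 beside 0.00 over all genes. Without the libraries that stood apart it shrank to -0.00 ± 0.52 for Thrsp, -0.06 ± 0.31 for Srebf1, -0.25 ± 0.38 for Fasn and -0.38 ± 0.26 for Elovl6. Acly (-0.26) and Acaca (-0.24) kept theirs, and Mlxipl rose to 0.22. The members varied together between livers, so their signs are not independent.

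**Figure D3:**
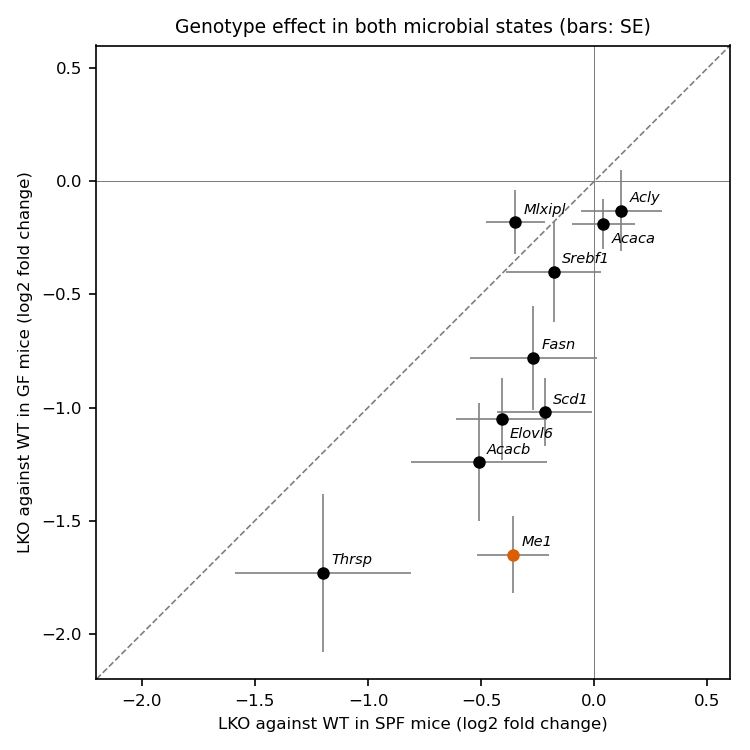
log2 fold change of LKO against WT in SPF mice (horizontal axis) and in GF mice (vertical axis) for the 10 members; bars are SE and the dashed line marks equal effects. Me1, in orange, lies at -0.36 and -1.65 and is the member whose difference passed; 9 of the 10 points lie below the line.

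Comparing GF with SPF mice of 1 genotype asked what differed with microbial status. GF mice were also rederived and kept in isolators, and effects of these cannot be told apart from those of lacking microbes. These comparisons use the same libraries as those between genotypes. In WT livers Mlxipl was lower, and Acly and Acacb were higher, in GF mice. Called lower was 1 of 10 members, beside 17.7% of the 12776 genes tested, and 2 were called higher, beside 14.2%. The members' median change was 0.23, that of all genes -0.02.

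Mlxipl had 67.8, 97.4 and 158 CPM as lowest, median and highest values in GF WT livers, so the median GF liver lay below the lowest SPF WT liver (101). The change was -0.90 ± 0.12 (adjusted p = 7.54e-07). Acly had 108, 210 and 422 CPM in SPF WT and 171, 270 and 660 in GF WT livers, which overlapped, with a change of 0.48 ± 0.18 (adjusted p = 0.0355). Its call was lost without any 1 of 6 libraries, namely SPF WT ZT2 replicates 1 and 3, SPF WT ZT10 replicate 1 and the 3 of GF WT ZT18 (adjusted p up to 0.0695). Acacb had 17.8, 48.5 and 109 CPM in SPF WT and 28.5, 97.7 and 206 in GF WT livers, a change of 0.71 ± 0.24 (adjusted p = 0.0234). Srebf1 had a change of -0.50 ± 0.24 (adjusted p = 0.103), and without the libraries that stood apart -0.64 ± 0.23 (adjusted p = 0.0337), which leaving out GF WT ZT6 replicate 3 alone also gave (-0.61, adjusted p = 0.0416). With ZT added as a factor Elovl6 (0.40 ± 0.13, adjusted p = 0.0129) and Thrsp (0.64 ± 0.16, adjusted p = 0.00254) passed as well.

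In LKO livers Me1, Scd1 and both regulators were lower in GF mice. Called lower were 4 of 10 members, beside 18.4% of the 13010 genes tested, and 0 were called higher (0 at an unadjusted p under 0.05 and 0 by DESeq2), beside 18.1%. The members' median change was -0.36, that of all genes -0.02. Me1 had 38.3, 84.6 and 197 CPM in SPF LKO livers, where GF LKO livers had 28.2, 40.1 and 83.4, and the change was -1.02 ± 0.18 (adjusted p = 3.06e-05). The changes were -0.63 ± 0.18 for Scd1 (adjusted p = 0.00728), -0.71 ± 0.19 for Srebf1 (adjusted p = 0.00358) and -0.71 ± 0.15 for Mlxipl (adjusted p = 0.000441). Srebf1 had medians of 166 CPM in SPF LKO and 101 in GF LKO livers, and Mlxipl of 153 and 94.2. With ZT added as a factor Acly (0.26 ± 0.09, adjusted p = 0.0142) and Fasn (-0.40 ± 0.14, adjusted p = 0.0164) passed as well. For Thrsp the estimate was -0.01 ± 0.34 (adjusted p = 0.985), and 0.45 ± 0.30 (adjusted p = 0.245) without the libraries that stood apart.

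With all libraries, the members' median genotype effect at single times was farthest from 0 between ZT6 and ZT14. The 12 libraries of a time were fitted together, so a library far from its group also widens the spread for the other comparisons at that time. Of the 60 pairs of a member and a time, 6 were called lower and 1 higher in SPF LKO livers, beside 2.43% and 2.49% of all pairs of a gene and a time. In GF LKO livers 20 were called lower, beside 4.12%, and 0 higher (2 at an unadjusted p under 0.05 and 0 by DESeq2), beside 3.87%. All 10 estimates were negative at ZT10 and at ZT14 in both SPF and GF mice, while 9 of 10 were positive in SPF mice at ZT2. In GF mice the members' median change was -1.12 at ZT6, -1.03 at ZT10 and -1.11 at ZT14, and -0.13 at ZT2 and -0.09 at ZT22. Without the libraries that stood apart the GF median was -0.53 at ZT6, nearer to 0 than the -0.81 at ZT18, and -1.10 at ZT14. The SPF median was then -0.66 at ZT6, -1.18 at ZT14 and -0.53 at ZT18.

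**Figure D4:**
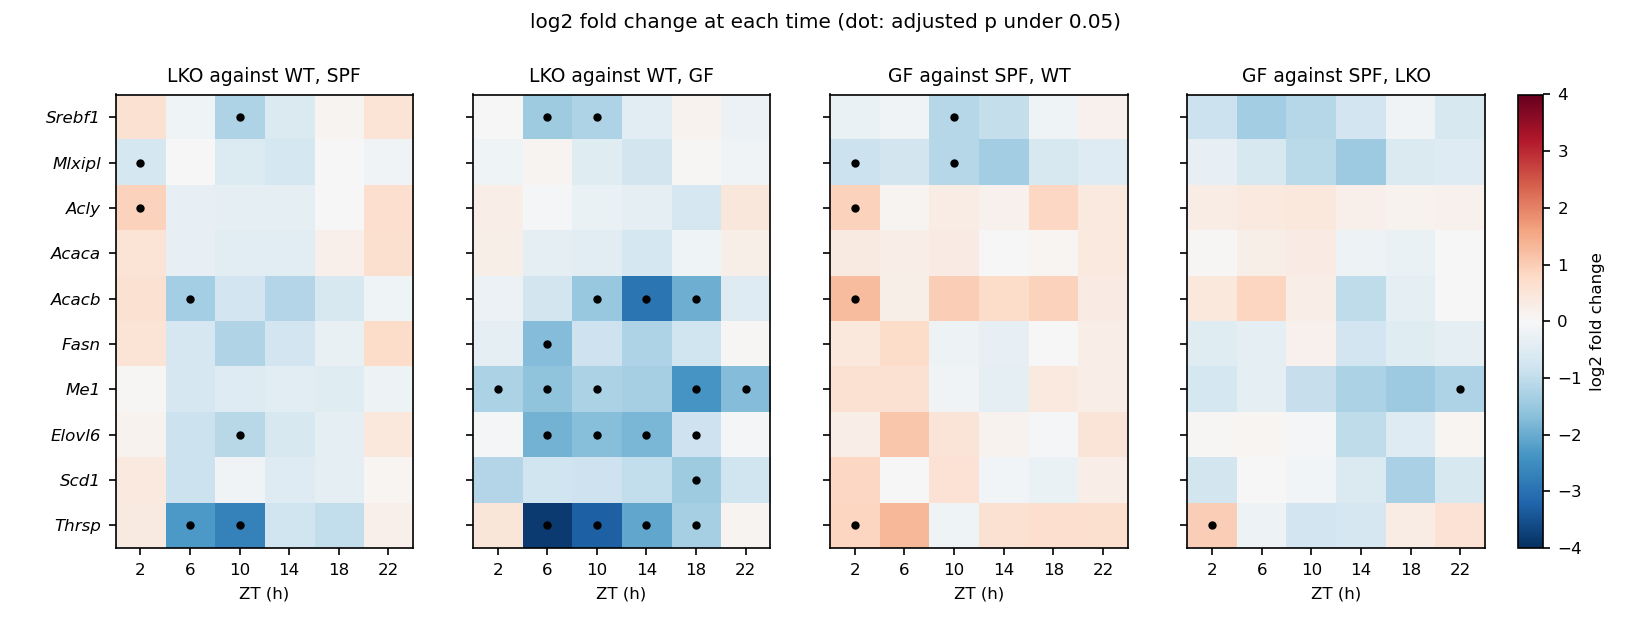
log2 fold change of each member (rows) at each ZT (columns, h) in the 4 comparisons, 3 against 3 libraries; blue is lower and red higher in the group named first, and a dot marks an adjusted p under 0.05. Thrsp has the deepest blue, with -3.83 at ZT6 for LKO against WT in GF mice.

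Thrsp had the largest changes. At ZT6 it had 558, 418 and 452 CPM in SPF WT and 130, 61.8 and 98.0 in SPF LKO livers. At ZT10 it had 1423, 1132 and 1991 CPM in SPF WT and 248, 335 and 121 in SPF LKO livers. The groups were far apart at both times, with changes of -2.31 ± 0.41 (adjusted p = 0.00383) and -2.69 ± 0.37 (adjusted p = 0.000203).

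In GF mice Thrsp had 578, 806 and 2202 CPM in WT and 95.1, 75.7 and 81.5 in LKO livers at ZT6. At ZT10 it had 1803, 938 and 1264 CPM in WT and 87.3, 148 and 179 in LKO livers. Again no values overlapped, and the changes were -3.83 ± 0.44 (adjusted p = 0.000106) and -3.27 ± 0.38 (adjusted p = 3.38e-05). The 2202 came from the GF WT library that stood apart, without which the change at ZT6 was -3.04 ± 0.25 (adjusted p = 7.01e-06). At ZT2 the genotypes overlapped in SPF mice, with 82.4, 122 and 93.0 CPM in WT and 144, 99.0 and 135 in LKO livers. In GF mice at ZT2 every LKO liver (231 to 266 CPM) lay above every WT liver (149 to 206), a change of 0.48 ± 0.17 that did not pass (adjusted p = 0.162).

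At ZT14 a single library decided the SPF result. Thrsp had 1998, 967 and 895 CPM in SPF WT and 394, 1448 and 383 in SPF LKO livers, a change of -0.79 ± 0.45 (adjusted p = 0.536). Acacb had 45.8, 51.2 and 104 CPM in SPF WT and 10.95, 66.8 and 11.8 in SPF LKO livers, a change of -1.17 ± 0.56 (adjusted p = 0.468). The 1448 and the 66.8 belonged to the same library, SPF LKO ZT14 replicate 2, the one with little Npas2. Without the libraries that stood apart 7 members were called lower at ZT14, among them Acacb (-2.08 ± 0.16, adjusted p = 1.33e-05), Thrsp (-1.92 ± 0.25, adjusted p = 0.000709), Elovl6 (-1.34 ± 0.16, adjusted p = 0.000354) and Fasn (-1.55 ± 0.20, adjusted p = 0.000686). In GF mice 9 members were then called lower at ZT14, in place of 3. Over all times the calls then numbered 19 in place of 7 in SPF mice and 26 in place of 20 in GF mice. Leaving out SPF LKO ZT14 replicate 2 alone gave 14 in SPF mice. The share of all genes called in these refits is not given, so the gain in calls is not shown to be particular to the members.

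Elovl6 and Acacb were both called lower in GF LKO livers at ZT10, ZT14 and ZT18. Elovl6 had 249, 206 and 176 CPM in GF WT and 62.5, 58.6 and 55.8 in GF LKO livers at ZT14, with no overlap, and it was called lower at ZT6 (-1.88 ± 0.30), ZT10 (-1.69 ± 0.26), ZT14 (-1.84 ± 0.33) and ZT18 (-0.82 ± 0.22). The adjusted p were 0.00134, 0.000439, 0.0129 and 0.0366. Without the GF WT library that stood apart the change of Elovl6 at ZT6 was -1.30 ± 0.16 (edgeR adjusted p = 0.00022). The call of Elovl6 at ZT18 was lost without any 1 of the 6 libraries (edgeR adjusted p 0.057 to 0.13). Acacb had 104, 104 and 124 CPM in GF WT and 13.6, 17.4 and 13.1 in GF LKO livers at ZT14, a change of -2.91 ± 0.59 (adjusted p = 0.0166), with changes of -1.52 ± 0.42 at ZT10 (adjusted p = 0.025) and -1.96 ± 0.42 at ZT18 (adjusted p = 0.0147). Its call at ZT10 was lost without 5 of the 6 libraries in turn (edgeR adjusted p up to 0.124) and that at ZT18 without 2 (up to 0.0665). In SPF mice Elovl6 was called at ZT10 (-1.11 ± 0.26, adjusted p = 0.011) and Acacb at ZT6 (-1.37 ± 0.29, adjusted p = 0.011). Calls from 3 against 3 libraries were easily lost. Of the 20 in GF mice 11 held, and of the 7 in SPF mice 2 held (both of Thrsp), with any 1 library of the 2 groups left out, and at GF ZT14 Acacb was lost without 5 of the 6 (adjusted p 0.0472 to 0.0769) and Thrsp without any (0.0526 to 0.0925).

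Me1 was lower in GF LKO livers around the clock. It was called at ZT2 (-1.28 ± 0.25), ZT6 (-1.62 ± 0.27), ZT10 (-1.28 ± 0.23), ZT18 (-2.35 ± 0.39) and ZT22 (-1.72 ± 0.23), with adjusted p from 0.000386 to 0.00839, and these 5 calls held with any 1 library left out. Without the GF WT library that stood apart its change at ZT6 was -1.21 ± 0.19 (edgeR adjusted p = 0.00127). At ZT14, where its change was -1.32 ± 0.38 (adjusted p = 0.0605), and -1.31 ± 0.13 (adjusted p = 4.11e-05) without the libraries that stood apart, it had 73.9, 93.7 and 80.8 CPM in GF WT and 35.2, 34.96 and 29.5 in GF LKO livers. At ZT18 it had 214, 294 and 182 CPM in GF WT and 28.2, 34.2 and 70.5 in GF LKO livers. The genotypes did not overlap at either time. Scd1 was called at ZT18 (-1.42 ± 0.35, adjusted p = 0.0259), with 9871, 9832 and 8951 CPM in GF WT and 3767, 2027 and 4718 in GF LKO livers. Unlike the calls of Me1, that of Scd1 was lost without 5 of the 6 libraries in turn (edgeR adjusted p 0.0366 to 0.0881).

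Of the regulators, Srebf1 was called lower in LKO livers at ZT10 in SPF mice (-1.23 ± 0.27, adjusted p = 0.00897) and in GF mice (-1.23 ± 0.28, adjusted p = 0.00786). In SPF mice it had 140, 360 and 283 CPM in WT and 83.7, 148 and 102 in LKO livers, where the highest LKO value passed the lowest WT value. In GF mice it had 108, 106 and 137 CPM in WT and 50.9, 56.3 and 43.1 in LKO livers, with no overlap. Its call at ZT6 in GF mice (-1.42 ± 0.43, adjusted p = 0.0477) was lost without any of the 3 GF LKO libraries in turn, and without the GF WT library that stood apart, which had 315 CPM beside 72.8 and 96.8. At ZT2 in SPF mice Mlxipl was called lower (-0.70 ± 0.19, adjusted p = 0.0411) and Acly higher (0.91 ± 0.25, adjusted p = 0.0484), with 115, 183 and 108 CPM of Acly in WT and 245, 300 and 213 in LKO livers. Each of these calls was lost without 5 of the 6 libraries in turn.

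Microbial status was compared in the same way at each time. In WT livers 3 of 60 pairs of a member and a time were called lower in GF mice, beside 1.17% of all pairs of a gene and a time, and 3 higher, beside 1.72%. In LKO livers 1 was called lower, beside 1.02%, and 1 higher, beside 1.69%. The counts were 11 in place of 6 and 4 in place of 2 without the libraries that stood apart, where the share of all pairs called is not given.

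Thrsp was higher in GF mice of both genotypes at ZT2, early in the rest phase. It had 149, 178 and 206 CPM in GF WT beside 82.4, 122 and 93.0 in SPF WT livers, a change of 0.85 ± 0.17 (adjusted p = 0.00957). It had 266, 249 and 231 CPM in GF LKO beside 144, 99.0 and 135 in SPF LKO livers, a change of 0.97 ± 0.17 (adjusted p = 0.00635). Neither pair of groups overlapped, and both calls held with any 1 library left out. At the same time in WT livers Acacb (1.27 ± 0.30, adjusted p = 0.0212) and Acly (0.91 ± 0.25, adjusted p = 0.039) were higher and Mlxipl was lower (-0.85 ± 0.19, adjusted p = 0.0161). At ZT10 in WT livers Mlxipl (-1.14 ± 0.26, adjusted p = 0.0327) and Srebf1 (-1.15 ± 0.27, adjusted p = 0.0391) were lower in GF mice. In LKO livers Me1 was lower in GF mice at ZT22, with 57.5, 37.6 and 65.7 CPM beside 117, 168 and 98.9 (-1.25 ± 0.22, adjusted p = 0.0152). These 6 calls did not hold in the same check. With 1 of 6 libraries left out in turn Mlxipl at ZT2 was lost without 2, Acly without 4 and Acacb without 3, Mlxipl and Srebf1 at ZT10 without 5 each, and Me1 at ZT22 without 2.

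A cosine of 24 h fitted to each group asked which members cycled. In SPF WT livers 8 of 10 had a rhythm, beside 15% of the 13907 genes tested, and in SPF LKO livers 7, beside 21.2% of 14028. In GF WT livers 6 had a rhythm, beside 26.7% of 13203, and in GF LKO livers 8, beside 35% of 13494. From trough to peak the rhythms had a median size over the members of 1.21 on the log2 scale in SPF WT, 1.37 in SPF LKO, 0.96 in GF WT and 1.20 in GF LKO livers, beside 0.34, 0.35, 0.36 and 0.37 over all genes. With ZT as separate levels in place of the cosine 4 members passed in SPF WT, 5 in SPF LKO, 5 in GF WT and 8 in GF LKO livers. With 1 library of the group left out in turn 5 to 8, 6 to 8, 4 to 8 and 8 to 9 passed in the same order. The share of all genes in these fits is not given.

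The called rhythms all peaked between ZT12 and ZT24, the dark phase, and every member with a called rhythm in both genotypes had a later fitted peak in LKO livers. Thrsp had the largest rhythm in each group. It peaked at ZT13.1 ± 0.4 (SE) in SPF WT livers, rising 12.6-fold from its trough, and at ZT16.6 ± 0.6 in SPF LKO livers, rising 6.50-fold. In GF mice it peaked at ZT13.3 ± 0.6 in WT (8.76-fold) and ZT18.7 ± 0.3 in LKO livers (7.20-fold).

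Elovl6 peaked at ZT14.5 ± 0.6 in SPF WT, ZT18.8 ± 0.7 in SPF LKO, ZT12.8 ± 1.2 in GF WT and ZT21.3 ± 0.7 in GF LKO livers. Acacb peaked at ZT18.3 ± 1.0, ZT21.6 ± 0.9, ZT18.2 ± 0.7 and ZT23.6 ± 0.5 in the same order, and Acly at ZT16.8 ± 1.2, ZT21.1 ± 0.5, ZT18.5 ± 0.8 and ZT21.5 ± 0.6. Fasn and Acaca were not called in GF WT livers. In SPF mice Fasn peaked at ZT15.2 ± 1.0 in WT and ZT19.7 ± 0.6 in LKO livers, and Acaca at ZT14.7 ± 1.1 and ZT20.2 ± 0.6. Srebf1 had a called rhythm in SPF WT (peak at ZT12.2 ± 1.2) and GF LKO livers (ZT19.1 ± 0.6), and Mlxipl in GF WT (ZT22.5 ± 0.8) and GF LKO livers (ZT23.6 ± 0.8). In GF WT livers Me1 and Elovl6 each lost the call without 11 of the 18 libraries in turn, as Acly did in SPF WT livers, where Srebf1 lost it without 9. Without the libraries that stood apart Fasn (edgeR adjusted p = 0.00449) and Srebf1 (0.0279) also had a called rhythm in GF WT livers. Me1 (0.03) then passed in SPF LKO livers, and Acly (0.0531) did not pass in SPF WT livers.

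**Figure D5:**
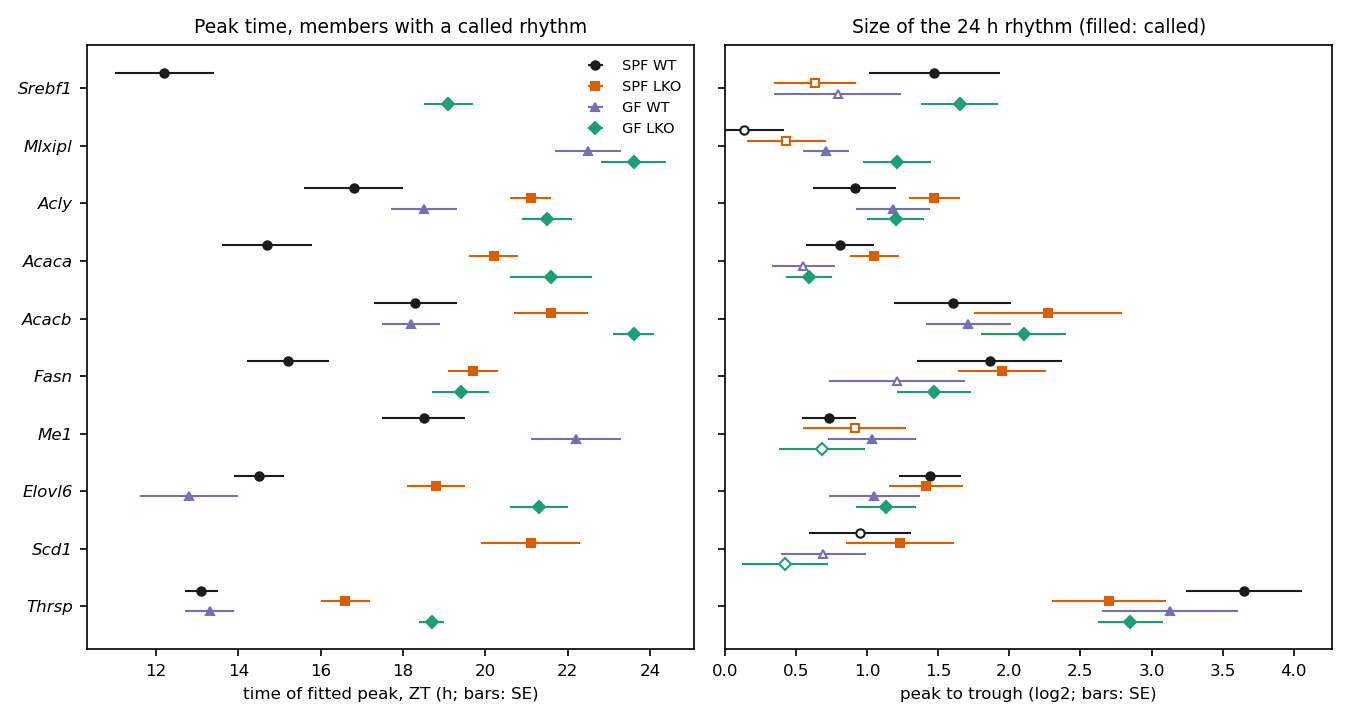
Left, time of the fitted peak (ZT, h) of members with a called rhythm; right, size of the rhythm from trough to peak (log2), filled where called; bars are SE, and colours and shapes mark the 4 groups. For Thrsp the WT peaks lie at 13.1 and 13.3 and the LKO peaks at 16.6 and 18.7.

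Differences in rhythm between groups were tested directly, and their size is that of the difference between the fitted cosines. Between SPF LKO and SPF WT livers the rhythms of Thrsp (2.73 on the log2 scale, adjusted p = 0.0119) and Acaca (1.26, adjusted p = 0.0362) differed, 2 of 10 members beside 1.02% of 14442 genes. With the libraries of 1 replicate number left out at a time, Acaca was lost each time (adjusted p 0.0741 to 0.363) and Thrsp without number 1 or 3 (up to 0.422). Without the libraries that stood apart Elovl6 (1.70, adjusted p = 0.000828) and Fasn (2.32, adjusted p = 0.0432) passed too.

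Between GF LKO and GF WT livers the rhythms of Thrsp (3.96, adjusted p = 3.36e-05), Acacb (2.47, adjusted p = 0.000215) and Elovl6 (2.02, adjusted p = 0.0017) differed, 3 of 10 members beside 5.81% of 13806 genes. Thrsp held with any replicate number left out, while Acacb (adjusted p = 0.0706) and Elovl6 (0.109) were lost without number 1. For the other members a change of rhythm, and so of peak time, was not shown.

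Between GF and SPF mice, 0 members differed in rhythm in WT livers (edgeR; 0 at an unadjusted p under 0.05 and 0 by DESeq2), beside 0.0355% of 14090 genes. In LKO livers that of Thrsp differed (1.75, adjusted p = 0.0343), 1 of 10 members beside 4.45% of 14234 genes, and the call was lost with any replicate number left out (adjusted p 0.11 to 0.301).

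Other genes of the pathway came from 3 lists, whose counts stand beside the same shares of all genes called in LKO against WT livers, 11.6% higher and 11.5% lower in SPF mice and 15.6% and 15.2% in GF mice. Of 21 lipogenic regulators, 3 were higher and 4 lower in LKO livers of SPF mice (median change -0.05) and 2 higher and 5 lower in GF mice (-0.04). The clock repressors Nr1d1 and Nr1d2 had the largest changes, -2.93 ± 0.53 (adjusted p = 5.93e-05) and -1.93 ± 0.31 (adjusted p = 1.06e-05) in SPF and -2.80 ± 0.48 (adjusted p = 1.27e-05) and -2.48 ± 0.28 (adjusted p = 4.45e-09) in GF mice. Higher in LKO livers were Irs2, which relays the insulin signal (1.04 ± 0.20, adjusted p = 0.000139, in SPF and 1.01 ± 0.22, adjusted p = 0.000317, in GF mice), and Insig2, which holds SREBP precursors back (0.91 ± 0.18, adjusted p = 0.000186, and 1.13 ± 0.24, adjusted p = 0.000364).

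Of 15 genes that supply substrate and NADPH, 2 were higher and 3 lower in LKO livers of SPF mice (median 0.01) and 2 higher and 6 lower in GF mice (-0.13). In GF mice Pklr, liver pyruvate kinase (-0.64 ± 0.15, adjusted p = 0.00102), and G6pdx, which yields NADPH (-0.48 ± 0.12, adjusted p = 0.00133), were among the lower. Gckr, the glucokinase regulator, was higher in both states (0.46 ± 0.08, adjusted p = 5.58e-05, in SPF and 0.60 ± 0.06, adjusted p = 5e-11, in GF mice).

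Of 22 genes of neighbouring fatty acid and triglyceride steps 19 passed the filter, and 2 were higher and 5 lower in LKO livers of SPF mice (median -0.15) and 2 higher and 10 lower in GF mice (-0.23). The lipid droplet gene Cidec was lower, at 0.498 of the WT level with microbes (SPF, adjusted p = 0.000286) and 0.389 without (GF, adjusted p = 3.41e-05). Scd2, another desaturase, was higher, 1.42 ± 0.17 (adjusted p = 5.78e-08) in SPF and 2.30 ± 0.20 (adjusted p = 3.47e-12) in GF mice, where Scd1 was lower. The elongase Elovl3 was higher as well, 1.47 ± 0.31 (adjusted p = 0.000533) and 1.21 ± 0.31 (adjusted p = 0.00248), and the desaturase Fads2 was lower in GF LKO livers (-1.04 ± 0.12, adjusted p = 2.62e-09).

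In GF against SPF mice the share of all genes called was 14.2% higher and 17.7% lower in WT livers and 18.1% and 18.4% in LKO livers. Of the lists, in WT livers 4 regulators were higher and 0 lower (1 at an unadjusted p under 0.05 and 0 by DESeq2), 5 supply genes higher and 1 lower, and 8 neighbouring genes higher and 0 lower (0 at an unadjusted p under 0.05 and 0 by DESeq2), with medians of -0.02, 0.20 and 0.21. In LKO livers the counts were 6 and 2, 4 and 1, and 9 and 3, with medians of -0.02, 0.07 and 0.18. Acss2, which makes acetyl-CoA from acetate, was higher in GF mice of either genotype (1.23 ± 0.17, adjusted p = 2.05e-06, in WT and 0.76 ± 0.17, adjusted p = 0.000514, in LKO livers). Pklr was lower in GF LKO livers (-0.85 ± 0.13, adjusted p = 6.95e-06).

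Of 11075 genes with a mean of at least 1 on the log2 CPM scale, those whose 24 means of group and time were most like the members' mean were Ddo (Pearson r 0.881), Gpam (0.875), Abcb10 (0.870), Nat8f5 (0.867), Ywhah (0.848) and Lacc1 (0.837). Gpam, which starts triglyceride synthesis, is also on the list of neighbouring steps. Among the members themselves, which are part of that mean, r ran from 0.40 (Mlxipl) to 0.94 (Fasn).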

How the data were processed

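RNA of 72 mouse livers was measured by stranded, single-end mRNA sequencing. The values the authors deposited are raw counts of reads per gene, made with STAR 2.6.1b on mm10 and featureCounts 2.0.0 over exons, without strand, multimapping reads or reads over several genes (STAR and featureCounts versions per the submitters' processing notes), so overlapping genes are uncertain. Libraries were grouped by their labels. Total counts were 17369927 to 22076113 (median 19106726), and CPM scaled counts by library size and TMM factors over all 72 libraries. TPM divided by exon length.

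Tests used edgeR 4.0.16 (R 4.3.3) with TMM, its filter on low counts, the quasi-likelihood test and Benjamini-Hochberg adjustment over all genes tested, at 0.05. Pairs of groups were fitted on 36 libraries with times pooled, the difference of genotype effects on 72, each time on 12 with 4 group means, and rhythms with a 24 h cosine and sine. Peak times came from least squares on log2(CPM + 0.5). DESeq2 1.42.0 was an alternative, as were RLE scaling, no filter, a replicate block, ZT as a factor, and libraries left out. The edgeR fits were checked on simulated data with the same spread set for every gene and, for pairs of groups, no change with time. That check does not cover genes as variable or rhythmic as the members. Replicate libraries differed by more than sampling noise (chi-square per degree of freedom at least 10.5 in 72 pairs). P-values rest on the spread of libraries about the fitted values. In the fits with times pooled that spread includes the differences between times as well as between mice. In the rhythm fits it is the spread about the cosine, and at single times that within the 4 groups.

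Named were all 10 members, from each list and comparison up to 4 called genes with the largest change, and the 6 genes most like the members. The members and lists were chosen with earlier results of these data known. Coordinates are GRCm38. Figures used Python 3.11.15 (numpy 2.4.6, pandas 2.3.3, matplotlib 3.10.9).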

Additional observations from a re-analysis of the deposited data

Results flagged for a closer look

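The genotype effect on Me1 differed between GF and SPF mice, by -1.30 on the log2 scale (edgeR adjusted p = 0.00103), by the test of the difference itself. Rhythms differed between LKO and WT livers of SPF mice for Thrsp (2.73) and Acaca (1.26), and of GF mice for Thrsp (3.96), Acacb (2.47) and Elovl6 (2.02). The rhythm of Thrsp also differed between GF and SPF mice in LKO livers (1.75). Of these 7 results, that of Thrsp in GF mice is the one whose call held with the libraries of any 1 replicate number left out.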

How the results depend on the processing

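With all libraries but 1, the number of members called was 1 to 4 for genotype in SPF mice, 6 in GF mice, 2 to 4 for microbial status in WT and 4 in LKO livers. Without the libraries numbered 1, 2 or 3 it was 0 to 1 for the difference of genotype effects. Calls of a member at a time numbered 5 to 14 for genotype in SPF mice, 3 to 7 for microbial status in WT and 1 to 4 in LKO livers, and rhythms 5 to 8 in SPF WT livers. Differing rhythms numbered 0 to 2 for genotype in SPF mice, 1 to 4 in GF mice and 0 to 0 for microbial status in LKO livers. Without the libraries that stood apart the members called for genotype in SPF mice were 4, with ZT as a factor 4 and with no filter on low counts 1, and with ZT as a factor those for microbial status were 5 in WT and 6 in LKO livers, and those for genotype in GF mice 7. At single times DESeq2 called 12, 10 and 11 for genotype in SPF mice and microbial status in WT and LKO livers, and no filter gave 33, 26 and 31, with 37 for genotype in GF mice. Without the libraries that stood apart the first 3 were 19, 11 and 4. With ZT in place of the cosine 4 members cycled in SPF WT, 5 in SPF LKO, 5 in GF WT and 8 in GF LKO livers. In that setting 1 and 0 rhythms differed for genotype in SPF mice and microbial status in LKO livers. Differing rhythms for genotype in SPF mice were 4 by DESeq2, 6 with no filter and 4 without the libraries that stood apart; no filter gave 6 for genotype in GF mice and 3 for microbial status in LKO livers. The share of all genes called under these settings is not given, so the shifts are not shown to be particular to the members. The cause of these shifts was not tested.

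Replicate numbers did not pair the samples. Same-numbered deviations had a median r of 0.02, -0.02, 0.01 and -0.03 in the 4 comparisons, over 0.1 in 5, 2, 6 and 3 of 18 pairs. With a replicate block 5 members were called for microbial status in WT livers and 6 in LKO livers, 3 and 6 for genotype in SPF and GF mice, and 4 pairs of a member and a time for microbial status in LKO livers.

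Signs turned only for members that had not passed. Acaca for genotype in SPF mice ran from -0.02 to 0.09 with 1 library left out. For microbial status in WT livers Fasn was -0.03 without the libraries that stood apart and -0.05 to 0.25 with 1 left out. In LKO livers Acaca was 0.02 with the replicate block, 0.01 with ZT as a factor, 0.03 without the libraries that stood apart and -0.07 to 0.05 with 1 left out, Thrsp 0.13, 0.03, 0.45 and -0.09 to 0.31 in the same order, and Acacb -0.13 to 0.18 with 1 left out. The difference of genotype effects for Srebf1 ran from -0.48 to 0.11 by replicate number left out. With 3 libraries per group at a time, a change that missed the threshold is not shown to be absent.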
